A study of Mus musculus with 4 samples.

Results

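The genes described here build and control the last step of secretion: syntaxins, SNAP and VAMP proteins, their regulators, synaptotagmins, Rab proteins and priming factors. The list holds 41 genes, of the 32288 features in the table. A gene was kept where it had at least 50 UMIs (unique molecular identifiers, one per captured transcript) summed over the typed cells, and 39 of the 41 passed. Syt4 with 8 UMIs and Cplx1 with 5 UMIs fell short, and the lowest members that passed were Unc13d with 144, Syt1 with 211 and Sytl2 with 261 UMIs. The same minimum left 15551 features of the whole table. Cells came from 4 mice of genotype Ptf1aCre-ERTM;ROSAYFP/+ backcrossed into CD-1. In all 4, tamoxifen at 5 mg/day, 5 days/week for 2 weeks switched on EYFP in cells with active Ptf1a, which in the adult pancreas marks acinar cells. Repeated caerulein, a peptide that causes pancreatitis, was started at 10 weeks of age and given for 2 weeks in 2 mice and for 4 weeks in 2 mice. EYFP-positive pancreas cells were then sorted, and no mouse without caerulein was analysed here. Mouse numbers below only name the animals, and values for single mice are given in the order 2-week mouse 1, 2-week mouse 2, 4-week mouse 1, 4-week mouse 2.

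Secretory granules fuse with the plasma membrane when a VAMP on the granule pairs with a syntaxin and a SNAP protein on the target membrane. Stxbp proteins hold and release the syntaxins, Rab3 and Rab27 proteins bring granules to the membrane, Unc13 proteins and Cadps prime them, and synaptotagmins and complexins tie fusion to calcium. Acinar cells store digestive enzymes in zymogen granules, mucous cells store mucins and trefoil factors, and enteroendocrine cells store peptide hormones with granins. Tuft cells are chemosensory epithelial cells with no classical zymogen, mucin or hormone store. The comparison asks which isoforms go with which kind of granule in cells that descend from acinar cells. The deposited names used are Acinar, MucinDuctal, Tuft and EEC (enteroendocrine), together with the intermediate Acinar/MucinDuctal, Acinar.Prolif, Ductal-like and Tuft/EEC.Progenitor cells.

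Promoter sequence is shown for 3 members that were high in EEC cells, to let the letters near their start sites be read beside their levels. E-boxes (CANNTG) are the sites of basic helix-loop-helix factors, a class that includes Ptf1a of acinar cells and Neurog3 and Neurod1 of endocrine cells. RefSeq promoters on build GRCm38.p6 were matched for 26 of the 39 members, and the 250 bases before each start were searched for CANNTG and for 2 of its forms, given with their counts in the next sentences. Each of the 3 motifs reads the same on both strands, and a match of either form is also a match of CANNTG. The form CAGCTG was found for 4 of the 11 matched members that went with EEC cells by the rule given below (Cplx2, Rab3a, Rab3c and Stx1a). It was also found for 6 of the 13 matched members that were shared between types, and in 13.0% of all 32851 RefSeq promoters. Members are counted by gene, with a match in any of its windows (Rab3a, Stx2, Rab27a, Stx7 and Syt1 have 2 each), and the share of all promoters is counted by window, so these are unlike shares. The form CATATG was found for 0 of the 11 and 1 of the 13, against 3.46% of all promoters. CANNTG was found for 7 of the 11 and 11 of the 13, against 66.2% of all. Each sequence below runs 5′ to 3′ on the gene's strand and ends at the base before the RefSeq start site, with CAGCTG in capitals. Bases just after each start were also looked for in transcripts of the gene. They were found for Stx1a but not for Cplx2, Rab3c or the Rab3a window with CAGCTG. Nor were they found for the CAGCTG window of Rab27a, a shared member. The counts above include such windows. The window of Rab3a overlaps an exon of Rab3a and is not printed. The Cplx2 window is chr13:54302306-54302555 on the plus strand, overlaps an exon of the non-coding gene Gm48623, and has the motif beginning 162 bases before the start. The Rab3c window is chr13:110280207-110280456 on the minus strand, with the motif beginning 108 bases before the start. The Stx1a window is chr5:135023232-135023481 on the plus strand, with the motif beginning 33 bases before the start.
Cplx2: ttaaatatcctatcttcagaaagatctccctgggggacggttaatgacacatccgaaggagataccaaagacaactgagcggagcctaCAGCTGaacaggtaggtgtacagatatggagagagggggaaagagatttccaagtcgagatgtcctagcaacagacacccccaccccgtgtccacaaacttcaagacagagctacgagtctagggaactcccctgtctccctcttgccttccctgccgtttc
Rab3c: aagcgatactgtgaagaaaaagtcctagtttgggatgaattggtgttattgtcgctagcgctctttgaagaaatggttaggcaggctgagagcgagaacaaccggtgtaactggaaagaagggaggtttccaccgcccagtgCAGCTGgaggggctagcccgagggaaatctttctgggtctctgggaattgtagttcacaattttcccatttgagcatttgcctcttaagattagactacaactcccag
Stx1a: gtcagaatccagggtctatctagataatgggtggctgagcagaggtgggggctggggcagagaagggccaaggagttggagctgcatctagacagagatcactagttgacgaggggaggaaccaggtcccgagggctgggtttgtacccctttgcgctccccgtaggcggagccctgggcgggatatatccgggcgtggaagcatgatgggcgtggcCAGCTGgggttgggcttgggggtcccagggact

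The table of typed cells held 13362 cells, 2814 to 3974 per mouse, with 60224505 to 90547790 UMIs per mouse and medians of 13460 to 20810 UMIs per cell. Of the typed cells, 47 carried a barcode that occurred in more than 1 library. Each type carried its own markers: summed CPM (a count scaled to one common UMI total per mouse and type) of Muc6, Tff2, Krt7, Krt19, Sox9 and Gkn3 was 34980 to 126100 in MucinDuctal cells, that of Dclk1, Trpm5, Pou2f3, Avil and Il25 was 3534 to 4056 in Tuft cells, and that of Chga, Chgb, Neurod1, Pax6 and Scg5 was 5947 to 8831 in EEC cells. Neuron and glia markers were also high in EEC cells, at 310 to 503 CPM in sum, of which Tubb3 made up 376 ± 81.8 CPM (mean ± SD, n = 4 mice, as in all values below), while Sox10 was at 0. Digestive enzymes took 47.9% to 56.2% of all UMIs in Acinar cells and 0.725% to 2.92% in MucinDuctal, Tuft and EEC cells. A CPM in Acinar cells is therefore a share of a total that is about as much enzyme as everything else. For this reason levels are also given over a total without enzymes, and isoforms are compared as shares of their own family. The level that free RNA and other cells give was read from 368 untyped cells with B cell markers, at a median of 3319 UMIs per cell, against 13460 to 20810 in the typed cells. In these cells 3 UMIs correspond to 1.93 CPM over all 4 mice, which is the limit a count of 0 allows. All these limits cover counting error only. Types were named by the authors on the same counts, so no p-value is given between types.

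Most of the exocytosis genes that went with a single type went with EEC cells. A member was assigned to Acinar, MucinDuctal, Tuft or EEC cells where it was highest there in each of the 4 mice and its mean was at least 2-fold that of the next type. By this rule 17 of 39 members (43.6%) went with EEC cells, against 13.3% of all features. Members were chosen with earlier results of these data known, so these shares describe a chosen list. Tuft cells had 3 members (Vamp8, Stxbp3 and Unc13d), which is 7.69% of members against 7.17% of all features. Acinar cells had 1 member (Rab26), or 2.56% against 1.53%, and MucinDuctal cells had 0 against 5.49%. The other 18 members were shared, against 72.6% of all features. The Tuft and Acinar shares lie near those of all features, and counts this small say little about the members. The map of mean levels by type shows the EEC column as the only bright one for most of the 17.

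**Figure D1:**
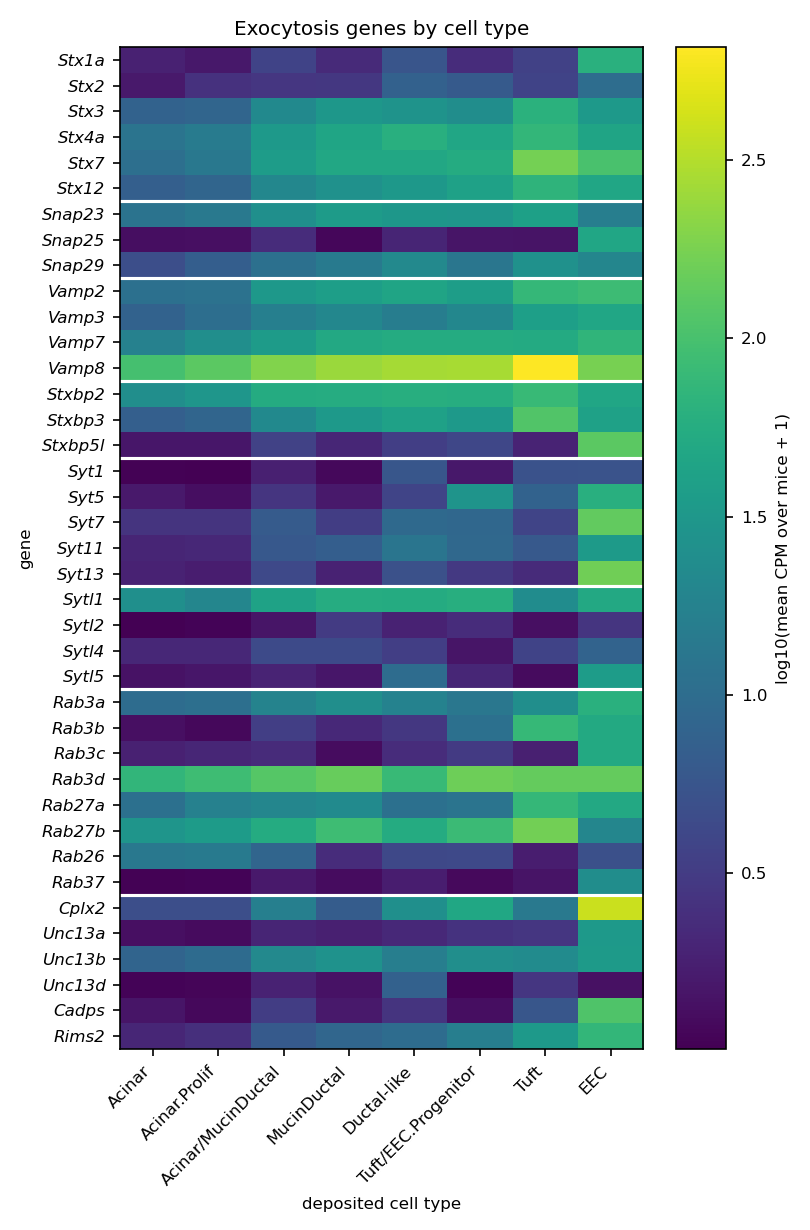
Mean CPM over mice of 39 exocytosis genes (rows, grouped by white lines into syntaxins, SNAP proteins, VAMP proteins, Stxbp proteins, synaptotagmins, synaptotagmin-like proteins, Rab proteins, and complexin with priming factors) in 8 deposited cell types (columns), coloured by log10(CPM + 1). Means are over 4 mice, and over 3 mice for Tuft/EEC.Progenitor cells, and Cplx2 and Vamp8 reach 390 CPM in EEC and 654 CPM in Tuft cells.

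Among the target-membrane SNAREs, Stx1a and Snap25, the pair used at nerve terminals and in hormone-secreting cells, were high in EEC cells only among the 4 secretory types. Snap25 was at 41.0, 43.6, 41.8 and 58.5 CPM in the EEC cells of the 4 mice, and its means in Acinar, MucinDuctal and Tuft cells were 0.304, 0.14 and 0.44 CPM. The highest value of a mouse in these 3 types was 1.20 CPM, in Tuft cells, so the groups did not overlap. Snap25 was at 0 in the B cell-like cells. Stx1a was at 60.9, 55.1, 58.9 and 68.3 CPM in EEC cells and at most 3.61 CPM in any mouse of the other 3 types. Its mean in EEC cells was 23.8-fold that in Tuft cells, the next type. Stx2, another plasma membrane syntaxin, followed at a lower level, with 9.31 ± 1.29 CPM in EEC and 2.73 ± 0.24 CPM in Tuft cells. B cell-like cells had 8.82 ± 8.58 CPM of Stx2, near the EEC mean, from 2, 4, 0 and 5 UMIs in the 4 mice. Acinar and MucinDuctal cells of the same mice had means of 0.595 and 1.88 CPM. Whether the B cell-like value comes from free RNA or from these cells themselves was not tested.

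Stx3 and Stx4a, the syntaxins of the apical and basolateral membrane in epithelia, were shared. Stx3 had means of 6.71 in Acinar, 30.2 in MucinDuctal, 62.8 in Tuft and 33.0 CPM in EEC cells, and Stx4a had 11.2, 44.5, 73.4 and 43.0 CPM. Both were highest in Tuft cells in 4 of 4 mice, by 1.90-fold and 1.65-fold over the next type, under the 2-fold of the rule. The endosomal syntaxins Stx7 and Stx12 were also highest in Tuft cells in 4 of 4 mice and shared by the rule. Stx7 was at 167, 162, 169 and 180 CPM in Tuft cells and 102 ± 5.89 CPM in EEC cells. It was also at 91.6 ± 15.5 CPM in the B cell-like cells, near its level in EEC cells. Snap23, the broadly used relative of Snap25, was at 15.2 ± 3.31 CPM in EEC cells, below the 34.1 ± 3.54 CPM of MucinDuctal and 39.4 ± 7.45 CPM of Tuft cells with no overlap between mice. Acinar cells had 11.0 ± 2.40 CPM of Snap23, and 22.95 CPM over a total without enzymes. Snap29, used in endosome and autophagosome fusion, ranged from 3.84 CPM in Acinar to 25.7 CPM in Tuft cells. B cell-like cells had 32.8 ± 7.87 CPM of Snap29, above the means of all 4 types, 54.3 ± 20.5 CPM of Stx4a, above all but Tuft cells, and 36.4 ± 9.35 CPM of Snap23, near the Tuft mean.

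Vamp8, the granule SNARE known from zymogen granules and mast cells, was the most abundant VAMP in each of these types and peaked in Tuft cells. Tuft cells had 663, 624, 606 and 724 CPM of Vamp8, MucinDuctal cells 248 ± 20.9, EEC cells 173 ± 10.8 and Acinar cells 97.3 ± 14.8 CPM. No mouse of another type reached the Tuft values. Over a total without enzymes the Acinar mean was 203 CPM, and Vamp8 was still assigned to Tuft cells. B cell-like cells had 121 ± 16.7 CPM, above the Acinar mean. Of the mast cell markers Cpa3, Mcpt4 and Kit, Tuft cells had 157, 216, 191 and 166 CPM in sum, all of it Kit, with Cpa3 and Mcpt4 at 0 in each mouse. The same sum was 93.1 CPM on average in EEC, 17.9 CPM in MucinDuctal and 6.53 CPM in Acinar cells. Vamp2, the neuronal-type VAMP, was 1.12-fold higher in EEC than in Tuft cells on average, with overlap between values of different mice. Within a mouse it was higher in EEC cells in 4 of 4 mice, with a smallest fold of 1.006. Tuft cells had 70.2, 66.3, 81.8 and 83.4 CPM and EEC cells 84.4, 82.7, 82.3 and 87.9 CPM. Vamp3 and Vamp7, of recycling and late endosomes, were highest in EEC cells in 4 of 4 mice but only 1.20-fold and 1.33-fold above Tuft cells.

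**Figure D2:**
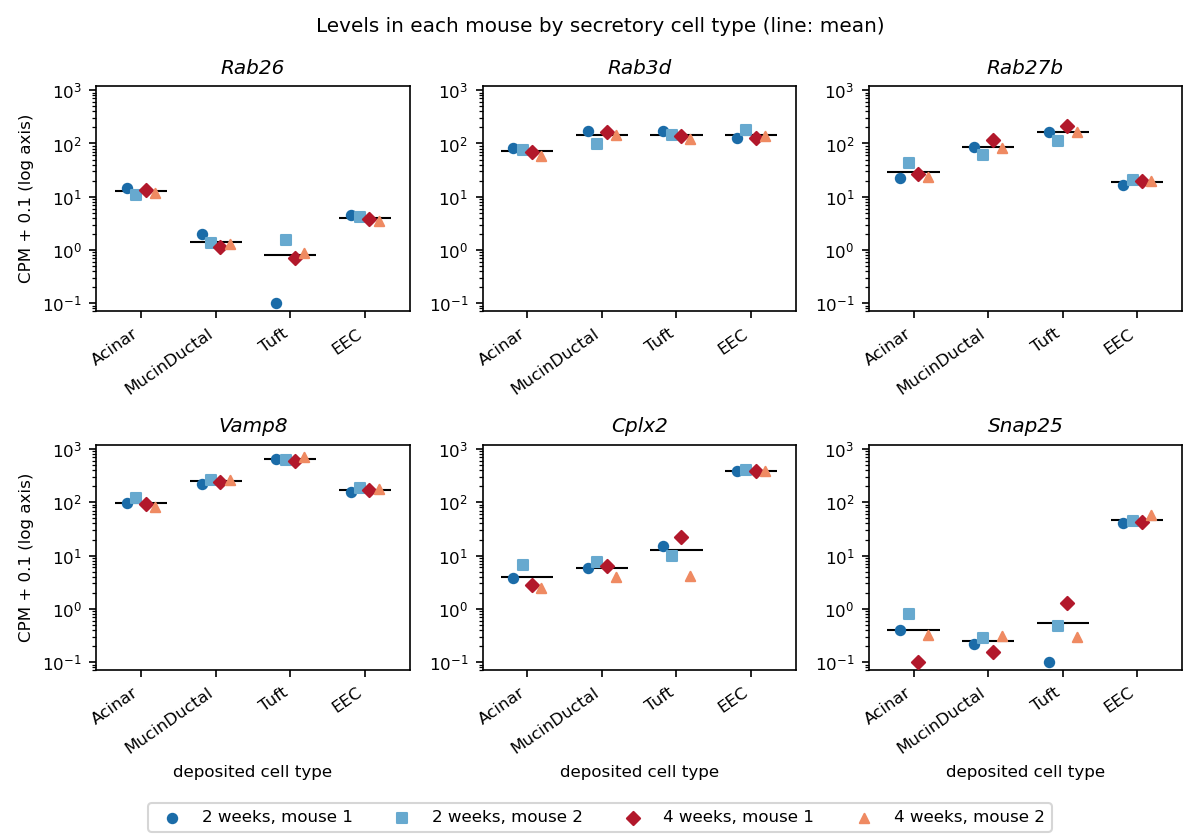
CPM + 0.1 (log axis, the same in each panel) of 6 genes in 4 deposited cell types, with 1 point per mouse and a line at the mean. Rab26 is highest in Acinar cells, Vamp8 in Tuft cells and Cplx2 and Snap25 in EEC cells in each mouse, while Rab3d overlaps between MucinDuctal, Tuft and EEC cells.

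The syntaxin-binding regulators divided by type. Stxbp2 (Munc18-2), the partner of Stx3 in epithelia and blood cells, was shared, with 23.9 in Acinar, 54.8 in MucinDuctal, 77.6 in Tuft and 46.1 CPM in EEC cells. Over a total without enzymes its Acinar mean was 49.5 CPM. Stxbp3 (Munc18c), the partner of Stx4, was at 111, 96.7, 119 and 120 CPM in Tuft cells and 40.0 ± 1.72 CPM in EEC cells, a ratio of 2.78, and it became shared when 3-fold was required. Stxbp5l (tomosyn-2), known as a brake on insulin secretion, was at 84.6, 205, 101 and 114 CPM in EEC cells and at most 2.41 CPM in any mouse of Acinar, MucinDuctal and Tuft cells. The 2-week mouse 2 stood well above the other 3 mice.

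Of the synaptotagmins, 4 were found mainly in EEC cells. Syt7, the high-affinity sensor of slow granule release, was at 169, 129, 146 and 113 CPM in EEC cells, 48.3-fold the Tuft mean of 2.88 CPM. Syt13, a member that lacks the usual calcium-binding residues, was at 132, 188, 151 and 169 CPM, 128-fold the Tuft mean of 1.25 CPM. Syt5 was at 58.7 ± 8.14 CPM in EEC, 28.3 ± 14.6 CPM in Tuft/EEC.Progenitor (3 mice) and 6.79 ± 2.52 CPM in Tuft cells. Syt11 was at 33.7 ± 4.23 CPM in EEC cells and 6.03 ± 1.02 CPM in MucinDuctal cells, with 9.34 ± 4.94 CPM in B cell-like cells. Syt1, the fast sensor of synapses, was low, at 4.37 ± 2.21 CPM in EEC and 4.21 ± 2.57 CPM in Tuft cells with overlapping mice. Among EEC subtypes it was at 4.17, 9.38, 22.3 and 33.7 CPM in ECL cells, 5.88 ± 2.38 CPM in progenitors, 1.58 and 0.79 CPM on average in Delta and Epsilon cells and 0 in Ppy+ cells of all 4 mice. In Acinar cells, many genes were highest in the 2-week mouse 2, members as well as genes outside the list. Nsf, which is not a member, was at 8.64 CPM there and at 5.215 to 6.107 CPM in the other 3 mice. Enzymes took 47.9% of the Acinar UMIs of that mouse and 49.2% to 56.2% in the others, and the part of this was not tested. Syt13 was at 2.59 CPM in the Acinar cells of that mouse and at 0.230 to 0.419 CPM in the other 3 mice. The summed EEC markers were also highest in that mouse, at 103 CPM in its Acinar cells and 6.64 to 11.5 CPM in the others, and their part in the Acinar values was not tested.

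Synaptotagmin-like proteins link Rab27 on granules to the plasma membrane. Sytl1 was the most abundant one and was shared, with 54.5, 44.3, 60.0 and 59.9 CPM in MucinDuctal and 41.4, 58.4, 48.7 and 47.3 CPM in EEC cells, which overlap. Tuft cells were lower, at 22.7 ± 5.39 CPM. Acinar cells had 24.4 ± 4.61 CPM, and 50.9 CPM over a total without enzymes, near the MucinDuctal and EEC values. Sytl5 was at 35.6 ± 8.30 CPM in EEC cells, 9.01 CPM in Ductal-like cells and at most 1.04 CPM in any mouse of Acinar, MucinDuctal and Tuft cells. Sytl4 (granuphilin), known from insulin granules, reached only 6.96 ± 2.17 CPM in EEC cells against 3.38 ± 0.26 CPM in MucinDuctal cells. Its assignment was lost without the 4-week mouse 1, at 3-fold, and with means of per-cell values. Sytl2 was at most 3.56 CPM in any mouse of these 4 types.

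Rab26 was the single member assigned to Acinar cells. This small GTPase is known as a target of the acinar secretory factor Bhlha15 (Mist1) and is found on secretory granules of exocrine cells. Its level was 14.5, 10.6, 13.6 and 11.8 CPM in Acinar cells and 15.0, 9.38, 16.1 and 14.0 CPM in Acinar.Prolif cells. It was at 7.36 ± 2.92 CPM in Acinar/MucinDuctal, 3.91 ± 0.48 CPM in EEC, 1.34 ± 0.35 CPM in MucinDuctal and 0.70 ± 0.58 CPM in Tuft cells. No mouse of the last 3 types reached an Acinar value. Rab26 was the one member whose Acinar level stayed above the other types although enzymes take much of the Acinar total, and without enzymes in the total its Acinar mean was 26.6 CPM. The B cell-like cells had Rab26 in 1 of 4 mice, for a mean of 1.44 ± 2.88 CPM. Over the 8 types Rab26 followed the summed enzymes with Pearson r = 0.92 on the log2(CPM + 1) scale, a description in which all points share the same mice and libraries.

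Rab3d, the Rab3 form known from zymogen and mucous granules, was abundant everywhere and marked no type. Its levels were 81.8, 76.2, 67.9 and 57.1 CPM in Acinar, 174.5, 96.1, 161 and 146 CPM in MucinDuctal, 169, 143, 135 and 121 CPM in Tuft, and 128.5, 176, 125.5 and 139 CPM in EEC cells. The last 3 overlap, and over a total without enzymes the Acinar mean was 148 CPM, beside MucinDuctal at 144, Tuft at 142 and EEC cells at 142 CPM over the full total. B cell-like cells had 4.73 ± 3.96 CPM. Rab3a, the neuronal form, was at 60.3 ± 7.86 CPM in EEC and 23.8 CPM in both Tuft and MucinDuctal cells. Rab3c was at 54.0, 40.3, 55.8 and 53.2 CPM in EEC cells and at most 1.76 CPM in any mouse of the other 3 types. Rab3b was shared by Tuft cells (86.0, 47.1, 66.5 and 105.8 CPM) and EEC cells (57.5, 44.6, 49.5 and 53.8 CPM) and was at 1.13 CPM in MucinDuctal and 0.33 CPM in Acinar cells.

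The 2 Rab27 forms, which carry granules to the membrane together with Sytl proteins and Myrip, went apart. Rab27b was at 163, 113, 214 and 164 CPM in Tuft, 86.8, 61.7, 115.5 and 81.6 CPM in MucinDuctal, 28.7 ± 9.50 CPM in Acinar and 19.1 ± 1.72 CPM in EEC cells. Tuft and MucinDuctal values of different mice overlapped, but within each mouse Tuft was at least 1.83-fold higher. Rab27a was at 74.5 ± 15.6 CPM in Tuft, 49.6 ± 1.11 CPM in EEC, 21.3 ± 2.40 CPM in MucinDuctal and 10.2 ± 3.37 CPM in Acinar cells. Over a total without enzymes its Acinar mean was 21.15 CPM. Rab37, known from mast cell and insulin granules, was at 28.9, 14.2, 23.4 and 27.2 CPM in EEC cells and under 1 CPM in each mouse of the other 3 types. B cell-like cells had 12.8 ± 5.83 CPM of Rab37, so EEC cells were not the only cells with this gene.

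Cplx2, the complexin that clamps and releases the SNARE complex, had the highest EEC level of any member assigned there. It was at 384, 406, 380 and 391 CPM in EEC cells, 12.8 ± 7.92 CPM in Tuft, 5.77 ± 1.49 CPM in MucinDuctal and 3.81 ± 1.95 CPM in Acinar cells, and at 0 in B cell-like cells. Tuft/EEC.Progenitor cells were in between, at 46.8 ± 21.0 CPM over 3 mice, while Snap25 and Cadps were at 0 in 2 of these 3 mice. The 4-week mice had only 25 and 28 of these cells, with 357340 and 436191 UMIs. A count of 0 there does not show absence or a contrast with Cplx2. Cadps (CAPS1), a priming factor of hormone granules, was at 134, 109, 96.3 and 97.4 CPM in EEC and 4.74 ± 1.51 CPM in Tuft cells. Unc13a, the neuronal Munc13, was at 31.5 ± 2.58 CPM in EEC and 1.85 ± 0.53 CPM in Tuft cells, whereas Unc13b was at 33.5 ± 2.35, 22.1 ± 2.01, 26.3 ± 0.77 and 7.19 ± 2.59 CPM in EEC, Tuft, MucinDuctal and Acinar cells. Rims2, a scaffold of release sites, was at 71.9 ± 4.01 CPM in EEC and 32.3 ± 7.32 CPM in Tuft cells. Unc13d, of cytotoxic and mast cell granules, was assigned to Tuft cells at only 1.83 ± 0.71 CPM. Ductal-like cells had 6.51 ± 1.96 CPM and B cell-like cells 14.9 ± 9.26 CPM of Unc13d.

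Shares within a family do not depend on the total, and several of them set EEC cells apart from Acinar, MucinDuctal and Tuft cells. They can still change with processing: with each cell thinned to 1500 UMIs the Rab27b share of EEC cells was lower, as given at the end. Transcripts were counted at their 3′ end, so a share does not scale with gene length. Rab27b made up 73.7% ± 2.94 of Rab27 UMIs in Acinar, 79.8% ± 2.98 in MucinDuctal and 68.2% ± 6.36 in Tuft cells, but 27.7% ± 1.90 in EEC cells (25.1, 29.3, 27.5 and 28.9%). The lowest mouse of the other 3 types was at 62.8%, so EEC cells did not overlap. Rab3d made up 87.4% ± 0.57 of Rab3 UMIs in Acinar and 84.9% ± 1.76 in MucinDuctal cells. In Tuft cells it was 58.8% ± 8.04, with Rab3b at 31.1% ± 8.17. In EEC cells the 4 Rab3 forms were more even, with Rab3d at 46.6% ± 6.78, which overlaps with Tuft cells, Rab3a at 19.8% ± 2.67, Rab3b at 16.9% ± 1.82 and Rab3c at 16.7% ± 2.66. Snap25 was 57.5% ± 2.41 of SNAP UMIs in EEC cells and 0.295% to 1.77% on average in Acinar, MucinDuctal and Tuft cells. Vamp8 was 74.7% ± 2.32, 70.1% ± 1.19 and 79.7% ± 1.55 of VAMP UMIs in these 3 types and 46.4% ± 1.02 in EEC cells, where Vamp2 took 22.7% ± 1.52. Stx1a was 41.6% ± 2.01 of plasma membrane syntaxin UMIs in EEC cells and 1.54% to 4.06% on average in the others. Unc13a was 48.1% ± 0.72 of Unc13 UMIs in EEC cells and 2.96% to 7.11% on average in the others. The share of Stx7 among the endosomal syntaxins overlapped between EEC (68.8% ± 2.71) and Tuft cells (71.7% ± 1.97), and Cplx2 made up nearly all complexin UMIs in each type.

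**Figure D3:**
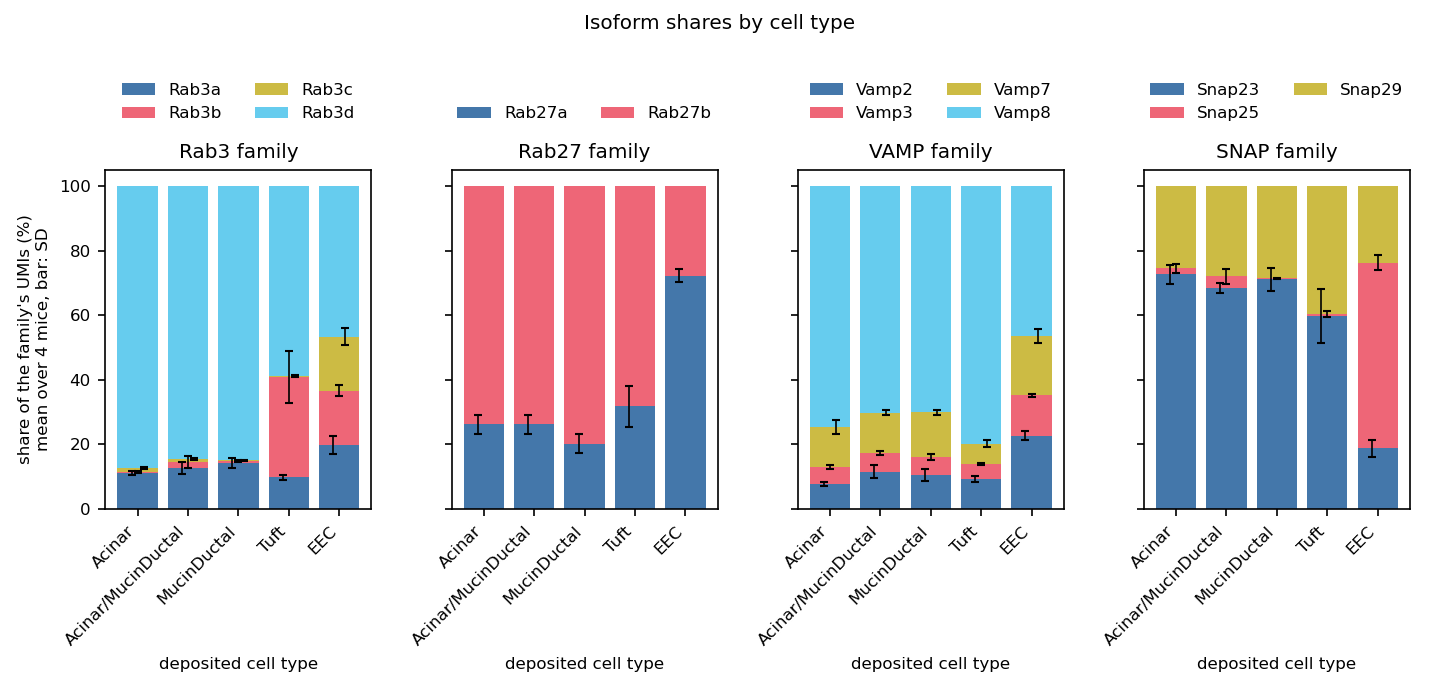
Share of each isoform in the UMIs of its family (percent, mean over 4 mice, error bars SD at the upper edge of a segment) in 5 deposited cell types. Rab27b makes up 73.7%, 79.8% and 68.2% of Rab27 in Acinar, MucinDuctal and Tuft cells and 27.7% in EEC cells, and Snap25 fills 57.5% of the SNAP bar in EEC cells. The SNAP bar holds Snap23, Snap25 and Snap29 only, without Snap47.

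Acinar cells, which store enzymes, and MucinDuctal cells, which store mucins, overlapped in the shares of Rab27b and Snap23 (72.8% ± 2.99 and 71.2% ± 3.56 of SNAP UMIs). The shares of Rab3d and Vamp8 were higher in Acinar cells, by a few percentage points and without overlap between mice. Their Stxbp3 shares were further apart, at 20.3% ± 1.68 of the UMIs of Stxbp2, Stxbp3 and Stxbp5l in Acinar and 36.5% ± 4.07 in MucinDuctal cells. Those of Syt11 were also apart, at 23.2% ± 3.41 and 61.1% ± 4.24 of synaptotagmin UMIs, in a family that was low in both types. Acinar/MucinDuctal cells, the intermediate type, had Rab27b at 73.8% ± 2.92, Rab3d at 84.6% ± 1.78 and Vamp8 at 70.1% ± 2.09, within or next to the Acinar and MucinDuctal values. Their depth differed, with medians of 2659 to 3555 UMIs per cell in 3 mice and 19560 in the 2-week mouse 2. Macrophage markers were also higher there, at 52.5 to 221.6 CPM in sum against 9.17 to 27.1 CPM in Acinar and MucinDuctal cells, and their part in the shares was not tested. On the log2(CPM + 1) scale of mean levels, 21 of 39 members were lower by more than 1 in Acinar than in MucinDuctal cells, as were 55.5% of all features. The added 1 shrinks differences of members at low CPM, so this is not a count of 2-fold differences in CPM. Without enzymes in the total it was 6 of 39, and 18.02% of all features.

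MucinDuctal cells are the authors' clusters 1 and 2, which differ in the content of mucous-cell cargo genes. These clusters were set side by side after their values had been seen, as a description with no test, because clustering used the same genes. Mucins, trefoil factors and gastrokines together took 1.35% to 2.89% of UMIs in cluster 1 and 12.1% to 14.7% in cluster 2, and Gkn3 was the largest single part in both (17750 ± 6294 CPM in cluster 1 and 69520 ± 7960 CPM in cluster 2). Rab3d was at 81.6, 81.9, 115 and 108 CPM in cluster 1 and at 207, 157, 171 and 174 CPM in cluster 2. The 2 clusters did not overlap, and cluster 2 was higher in 4 of 4 mice, by 0.88 ± 0.34 on the log2(CPM + 1) scale. Rab27a (0.79 ± 0.18), Vamp2 (0.65 ± 0.16) and Rab3a (0.53 ± 0.42) were also higher in 4 of 4 mice by at least 0.5 on that scale, which makes 4 of 39 members (10.3%) against 5.63% of all features. Stx2 (-0.65 ± 0.56) and Rims2 (-0.57 ± 0.32) were lower in 4 of 4 mice by at least 0.5, 5.13% of members against 14.5% of all features. Vamp8 was lower in cluster 2 in 4 of 4 mice, at 214 ± 9.05 against 300.2 ± 25.5 CPM, a difference of -0.48 ± 0.083. The 2-week mouse 2, which had the lowest MucinDuctal levels of Rab3d and Rab27b, had 1138 cells in cluster 1 and 250 in cluster 2. The other 3 mice had 113, 228 and 551 in cluster 1 and 258, 733 and 712 in cluster 2. Within the 2-week mouse 2, cluster 2 was above cluster 1 by 0.93 for Rab3d and 0.15 for Rab27b on the log2(CPM + 1) scale. The part of the cluster mix in these levels was not tested.

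**Figure D4:**
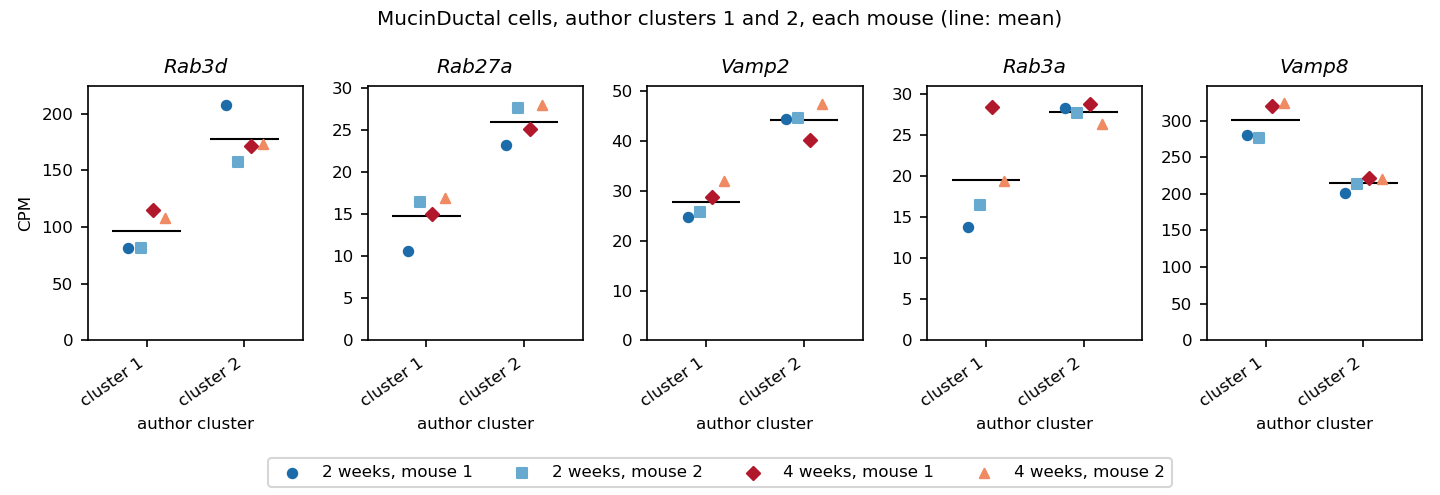
CPM of 5 genes in author clusters 1 and 2 of MucinDuctal cells, with 1 point per mouse and a line at the mean. Rab3d, Rab27a and Vamp2 lie higher in cluster 2 and Vamp8 lies lower, without overlap, while Rab3a of the 4-week mouse 1 is at 28.4 CPM in cluster 1 and 28.7 CPM in cluster 2.

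Enteroendocrine cells also differed among themselves, by the hormone they store. Deposited subtypes were Delta (somatostatin), ECL (enterochromaffin-like, Tac1-positive), Epsilon (ghrelin) and Ppy+ (pancreatic polypeptide) cells and Neurog3-positive progenitors, with 20 to 166 cells per mouse. These labels are separate from those of the types, and not all cells of these subtypes are typed EEC. Ghrl alone reached 47150 to 285000 CPM in Epsilon cells, and Sst alone 68540 to 107500 CPM in Delta cells. In Ppy+ cells Pyy reached 104000 to 136800 CPM and Ppy 33480 to 124700 CPM. Other genes in these subtypes are therefore a share of a smaller remainder. Rab3c was at 152, 83.4, 127 and 131 CPM in ECL cells, above each mouse of Epsilon (52.2 ± 8.49), Ppy+ (28.7 ± 5.64), Delta (20.3 ± 7.69) and progenitor cells (28.4 ± 5.93). Epsilon cells stood above the remaining 3, which overlap. Rab3b had another order, at 134 ± 21.2 CPM in Ppy+, 105.5 ± 24.5 CPM in Delta, 78.6 ± 16.6 CPM in ECL, 28.5 ± 6.67 CPM in Epsilon and 4.97 ± 0.71 CPM in progenitor cells. Ppy+ and Delta cells overlap, as do Delta and ECL cells, while Epsilon and progenitor cells each stand apart. Rab37 was at 79.4, 43.0, 81.4 and 96.9 CPM in Ppy+, 42.8 ± 13.6 CPM in ECL, 34.4 ± 15.9 CPM in Delta, 8.40 ± 3.24 CPM in Epsilon and 0.78 ± 0.90 CPM in progenitor cells. Ppy+ cells overlap with ECL and Delta cells, and Epsilon and progenitor cells stand apart. Rab3a was lower in progenitors, at 24.1 ± 6.55 CPM, than in each hormone type, where means ran from 58.6 to 88.1 CPM.

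Among the fusion and priming genes, Stx1a was highest in Epsilon cells at 76.6, 111, 88.4 and 110 CPM, overlapping Delta (71.7 ± 16.0) and in 1 mouse ECL cells (60.0 ± 14.3), and was at 20.45 ± 3.21 CPM in progenitors. Snap25 was at 93.6 ± 29.4 CPM in ECL cells, with 1 of the 4 mice at 53.2, and at 24.7 ± 6.25 CPM in progenitors. Cadps was at 34.8 ± 8.11 CPM in progenitors, 63.5 ± 22.9 CPM in Delta and 128.6 to 155.9 CPM on average in Ppy+, ECL and Epsilon cells. Cplx2 and Unc13a varied less: Cplx2 had means of 350.2 CPM in progenitors and 351 to 510 CPM in the hormone types, and Unc13a had means of 22.4 to 34.0 CPM over the 5 subtypes. Stxbp5l ran the other way, with 163, 224, 178 and 153 CPM in progenitors and 27.0, 40.7, 11.2 and 18.6 CPM in Ppy+ cells, which do not overlap. Its high value in the EEC cells of the 2-week mouse 2 was seen in Delta (185), ECL (121), Epsilon (222) and Ppy+ (40.7) cells of that mouse, each the highest of the 4 mice. That mouse also had the most progenitors, 166 against 45 to 95 in the others. Sytl4 was at 12.6 ± 4.85 CPM in Epsilon cells and at 0 in Delta cells of all 4 mice.

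**Figure D5:**
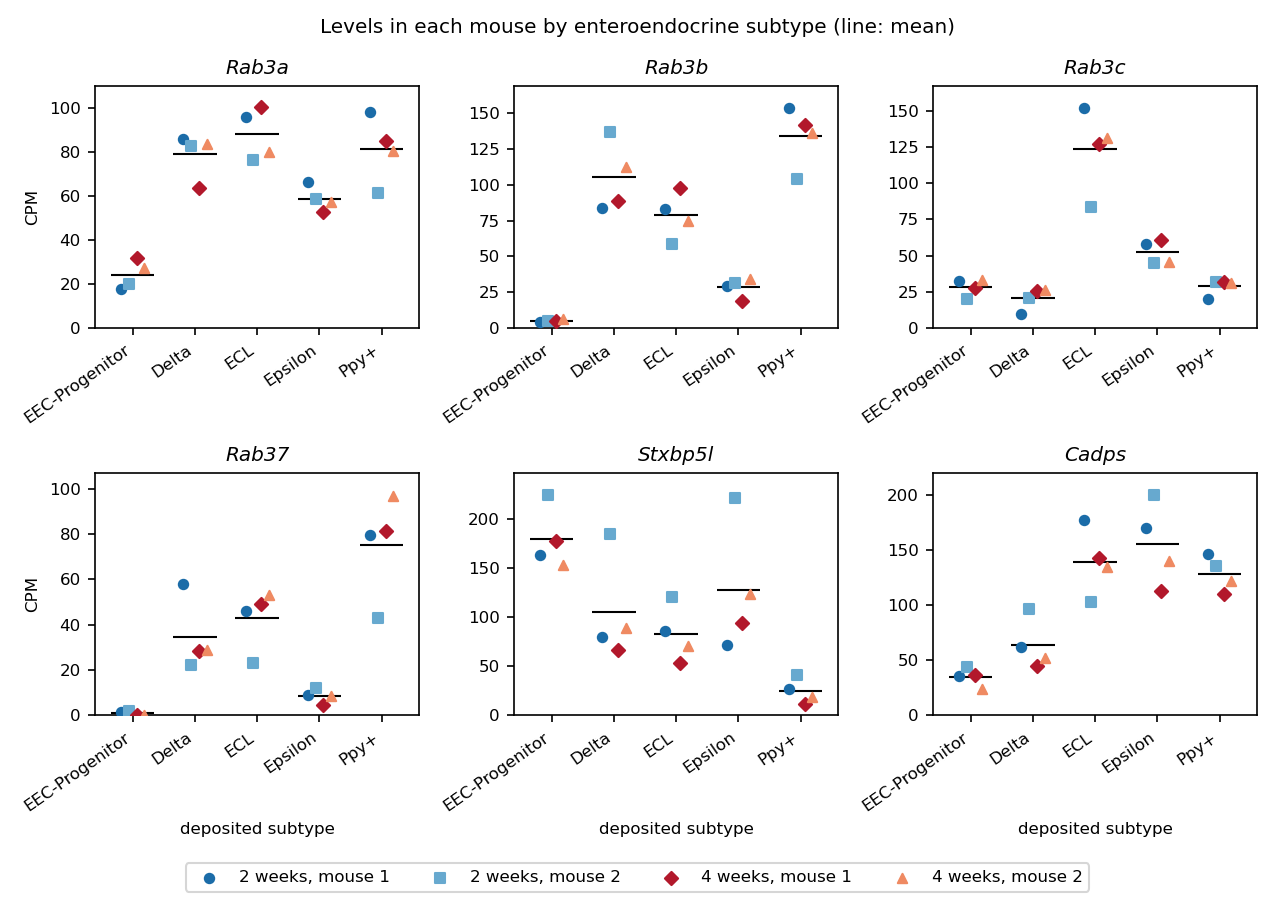
CPM of 6 genes in 5 deposited enteroendocrine subtypes, with 1 point per mouse and a line at the mean. Rab3c is highest in ECL cells, Rab37 is lowest in progenitor and Epsilon cells, and Stxbp5l is highest in progenitors and lowest in Ppy+ cells.

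Tuft cells carry the subtype names Tuft-1, Tuft-2 and Tuft-3, and for Tuft-1 only 2 mice (2-week mouse 2 and 4-week mouse 2) had the minimum of 20 cells. Rab3b was at 11.2 and 5.12 CPM in Tuft-1, 67.7 ± 18.8 CPM in Tuft-2 and 100.1 ± 40.1 CPM in Tuft-3 cells. Rab27a was at 22.4 and 10.2 CPM in Tuft-1, 66.5 ± 9.55 CPM in Tuft-2 and 96.7 ± 21.9 CPM in Tuft-3 cells. Vamp8 was at 398 and 428 CPM in Tuft-1, 682 ± 51.4 CPM in Tuft-2 and 730.1 ± 57.4 CPM in Tuft-3 cells, and the last 2 overlap. Stx7 and Stxbp3 had the same order, with 93.9, 168 and 206 CPM for Stx7 and 53.6, 114 and 130 CPM for Stxbp3. Syt5 was opposite, with 29.6 and 23.1 CPM in Tuft-1 against 3.81 ± 0.62 CPM in Tuft-2 and 2.84 ± 0.77 CPM in Tuft-3 cells.

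Other genes of the exocytosis pathway, from a list of 71, had the minimum of 50 UMIs in 59 cases. By the same rule 12 (20.3%) went with EEC cells, against 13.3% of all features, and 2 (3.39%) with MucinDuctal cells, against 5.49%. Tuft cells had 1 (1.69%, against 7.17%) and Acinar cells 0 (against 1.53%), and 44 were shared (74.6%, against 72.6%). The 3 with the largest fold in EEC cells were Syt17, Syt14 and Rph3al. Rph3al (Noc2), a Rab3 and Rab27 effector of hormone granules, was at 198, 236, 202 and 192 CPM in EEC cells and 5.78 to 8.21 CPM on average in Acinar, MucinDuctal and Tuft cells. Syt17 and Syt14 were at 13.6 and 10.8 CPM on average in EEC cells and under 0.35 CPM on average elsewhere. The MucinDuctal genes were Vamp5, at 26.3, 41.1, 14.9 and 24.9 CPM, and Syt12, at 1.65 CPM on average. The Tuft gene was Myrip, which links Rab27 to myosin, at 8.19, 5.08, 4.51 and 3.45 CPM.

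Between 4 and 2 weeks of caerulein no member passed the test in any type. Counts were summed per mouse and type and compared with edgeR's quasi-likelihood test in the 7 types with at least 20 cells in each mouse, with Benjamini-Hochberg adjustment over all genes of the type and a threshold of 0.05. The number of members tested was 37 in EEC, 33 in MucinDuctal, 31 in Acinar/MucinDuctal, 30 in Acinar, 29 in Tuft, 21 in Acinar.Prolif and 19 in Ductal-like cells, of which 0 passed, and DESeq2 also called 0. Of all genes, 0.00995% passed in Acinar.Prolif cells and 0% in the other 6 types. At an unadjusted p under 0.05 there were 3 members in Tuft cells (6.74% of all genes), 1 each in Acinar (2.79%), MucinDuctal (5.39%) and Ductal-like cells (5.27%), and 0 in EEC (4.03%), Acinar.Prolif (2.45%) and Acinar/MucinDuctal cells (3.42%). The median member difference in EEC cells was 0.075 on the log2 scale, beside -0.0066 over all genes.

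In Tuft cells the member with the smallest p was Syt5, at 7.61 and 9.94 CPM at 2 weeks and 5.41 and 4.22 CPM at 4 weeks. Its log2 difference was -0.94 ± 0.33 (SE), with both 4-week mice lower and an adjusted p of 0.591 by edgeR's quasi-likelihood test. Tuft-1 cells, in which Syt5 was highest, numbered 6, 166, 12 and 26 in the 4 mice, beside 83, 665, 212 and 320 typed Tuft cells. Within Tuft-3 cells Syt5 was at 3.06 and 2.68 CPM at 2 weeks and 3.73 and 1.88 CPM at 4 weeks, and within Tuft-2 cells at 2.91 and 3.96 against 4.35 and 4.01 CPM. The 2-week mouse 1 had a ratio of Tuft-1 to typed Tuft cells near those of the 4-week mice, and the part of the subtype mix in the Syt5 difference was not tested. Rims2 in Tuft cells was at 30.4 and 23.8 CPM at 2 weeks and 41.5 and 33.4 CPM at 4 weeks, and Stx12 was at 60.9 and 58.6 against 71.6 and 78.0 CPM, with adjusted p of 0.654 and 0.717 in edgeR. In MucinDuctal cells Rab27a was at 19.9 and 18.6 CPM at 2 weeks and 23.3 and 23.3 CPM at 4 weeks (log2 difference 0.40 ± 0.13, SE, edgeR adjusted p = 0.824). Cluster 2, rich in cargo genes of mucous cells, had more of Rab27a, and its share of cells differed between mice as given above. The 2-week mouse 1, like both 4-week mice, had more cells in cluster 2 than in cluster 1. The part of the cluster mix in the Rab27a difference was not tested. Cadps in Acinar cells was at 0.399 and 1.27 CPM at 2 weeks and 0.077 and 0.196 CPM at 4 weeks (log2 difference -1.95 ± 0.76, SE, edgeR adjusted p = 0.998). It ranged from -2.76 to -1.17 with each mouse left out, the smallest size being without the 2-week mouse 2. The EEC markers in these Acinar cells were at 11.5 and 103 CPM at 2 weeks and 8.08 and 6.64 CPM at 4 weeks, and their part was not tested. In EEC cells the smallest p belonged to Snap25, at 41.0 and 43.6 against 41.8 and 58.5 CPM, where the time points overlap (edgeR adjusted p = 0.986). The smallest p in Acinar.Prolif cells was that of Syt7 (log2 difference -0.90 ± 0.56, SE) and in Acinar/MucinDuctal cells that of Cplx2 (0.57 ± 0.36, SE), and neither passed. The Cplx2 value was -0.0038 without the 4-week mouse 1 and 1.06 without the 4-week mouse 2. Stxbp5l in EEC cells had a log2 difference of -0.33 ± 0.45 (SE). It turned to 0.37 ± 0.14 (SE) without the 2-week mouse 2 and was -0.79 ± 0.12 (SE) without the 2-week mouse 1. Rab37 in EEC cells had a log2 difference of 0.32 ± 0.39 (SE), and it was 0.98 ± 0.23 (SE) without the 2-week mouse 1. Ppy+ cells, in which Rab37 was highest, numbered 40, 20, 45 and 35 in the 4 mice, beside 264, 359, 295 and 290 typed EEC cells. They were fewest in the 2-week mouse 2, and their part in this difference was not tested. In these fits the lone 2-week sample was assumed to vary like the 4-week mice.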

How the data were processed

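Raw UMI counts per gene and cell were deposited by the authors with no normalization, from 10x Genomics 3′ libraries (per the labels' protocols). The submitters' processing notes name Cell Ranger 4.0.0, Seurat 3.2.3 and build mm10. Cell types, subtypes and cluster numbers are those deposited, and no doublet caller was run here. Counts were summed per mouse and type (at least 20 cells) and scaled to CPM, and log2 ratios use a pseudocount of 1. Isoform shares need at least 20 family UMIs. Time points were compared with edgeR 4.0.16 (robust quasi-likelihood, TMM, filterByExpr, R 4.3.3), with DESeq2 1.42.0 as an alternative, and the fits were tested on simulated data. Tuft/EEC.Progenitor cells were not tested, since 1 mouse had 10. B cell-like cells had at least 3 B cell markers and no Epcam, Krt8 or Krt18. Every member may be named, and per type the member with the smallest p. Members and lists were chosen with earlier results of these data known. Samples have 4 different codes in the labels and were taken as 4 mice, so p-values measure the spread between these samples.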

Additional observations from a re-analysis of the deposited data

Results flagged for a closer look

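Several exocytosis genes of EEC cells were also found in cells that the authors gave no type. Among the untyped cells, 209 had at least 3 of Chga, Chgb, Neurod1, Pax6 and Scg5, a gate set after the data had been seen. Cplx2 was at 179, 197, 220 and 215 CPM in them, with a mean of 203 CPM, while the B cell-like untyped cells had 0, with 1.93 CPM as the limit that a count of 0 allows. Snap25 was at 32.7 ± 9.64 CPM, Cadps at 56.6 ± 10.1 CPM and Rab27b at 56.5 ± 16.0 CPM, beside 19.1 CPM of Rab27b in typed EEC and 86.4 CPM in MucinDuctal cells. The cargo genes of mucous cells moved with Rab27b: their sum was 50880 ± 11630 CPM in these untyped cells, 1782 CPM in typed EEC and 87950 CPM in MucinDuctal cells, and their part in the Rab27b level was not tested. Of the other members that went with EEC cells, Stx2 was lower than in B cell-like cells (5.63 against 8.82 CPM) and Rab37 was near them (16.8 against 12.8 CPM). The rest were above the B cell-like mean, and the 17 apart from Sytl4 were below typed EEC cells on average. The 17 had been picked for high levels in typed EEC cells, and the share of all features is not given. Sytl4 was at 4.78, 2.52, 1.35 and 20.86 CPM, from 4, 3, 1 and 16 UMIs, against a mean of 6.96 CPM in typed EEC cells. Of the 209 cells, 73 had an EYFP UMI. Ins2 reached 68100 CPM in the 4-week mouse 2 and at most 46.6 CPM in the other mice.

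Rab27a was picked out after its values had been seen, because its 4-week mice lay on opposite sides of the 2-week mice in 2 cell types, and no difference passed a test. Both 4-week mice were higher in MucinDuctal cells (23.3 and 23.3 against 19.9 and 18.6 CPM) and both were lower in Ductal-like cells (0 and 8.15 against 15.2 and 16.7 CPM, from 0 and 4 against 20 and 40 UMIs). The Ductal-like cells of the 4-week mouse 1, where Rab27a was at 0, stood apart from those of the other mice: 23 cells had a median of 8889 UMIs (21040 to 38510 in the others), with 9.86% enzyme UMIs (2.07% to 2.72% in the others), and the part of this in the difference was not tested. The difference of the 2 time effects was -2.38 on the log2 scale by an interaction test in edgeR with mouse as a block, added after the values had been seen, and its adjusted p over 13090 genes was 0.662. Of these genes 0 passed the threshold and 842 had an unadjusted p under 0.05, while Rab27a had an unadjusted p of 0.007. In Ductal-like cells the time difference was -1.90 on the log2 scale, and -0.996 without the 4-week mouse 1. Without the 4-week mouse 2 the only 4-week mouse left was at 0, and the fitted value of -7.47 is no bound.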

How the results depend on the processing

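No paired analysis was possible because each mouse belongs to 1 time point and the labels give no replicate numbers that the time points share. For the counts of members passing the time test, 54 of 56 alternatives gave 0 like the reported fits. Over all genes DESeq2 called 1 to 45 per type, where edgeR called 1 in Acinar.Prolif cells and 0 in the others. Without a filter on low counts 1 member passed in Acinar cells (Stxbp5l, edgeR adjusted p = 0.023, log2 difference -3.06). That call rests on 10, 30, 4 and 0 UMIs in the 4 mice, the most in the mouse whose Acinar cells had the highest EEC markers. The share of all genes passing in that fit is not given, so the call says little about the members. In EEC cells the fit without the 2-week mouse 1 also differed. It leaves 1 mouse at 2 weeks, so only effect sizes are given. The log2 difference there was -0.79 for Stxbp5l and 0.98 for Rab37. The log2 difference of Cplx2 in Acinar/MucinDuctal cells ranged from -0.0038 without the 4-week mouse 1 to 1.06 without the 4-week mouse 2, and the cause was not tested. That of Rims2 in Tuft cells ranged from 0.28 to 0.64 and that of Snap25 in EEC cells from 0.13 to 0.50. Of the assignment counts, 49 of 50 stayed within 1.5-fold: at 3-fold in place of 2-fold, 1 member went with Tuft cells (Unc13d, the lowest of the 3), since Vamp8 and Stxbp3 became shared, as did Rab3a, Rims2 and Sytl4 of the members that went with EEC cells. With each mouse left out, 16 to 17 members went with EEC, 3 with Tuft, 1 with Acinar and 0 with MucinDuctal cells. On UMIs per cell, a scale added after the data had been seen, Sytl4, Rab3a and Rims2 became shared and Stx7 went with Tuft cells. Leaving enzymes, or all cargo genes, out of the total changed no assignment. Of 48 values of isoform shares, 45 stayed within 1 SD, and so did 61 of 63 subtype levels. The other 2 were Rab3b (from 1.56 to 13.3 CPM) and Rab27a (from 11.2 to 9.24 CPM) in MucinDuctalProgenitor cells, when mice with at least 10 cells were let in. Thinning each cell to 1500 UMIs moved the share summed over mice from 87.6% to 88.8% for Rab3d in Acinar cells, from 27.8% to 18.8% for Rab27b in EEC cells and from 41.4% to 45.5% for Stx1a in EEC cells, and the cause was not tested. Depth limits the rarer members: the 4 UMIs of Rab27a in the Ductal-like cells of the 4-week mouse 2 correspond to 8.15 CPM.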
